A study of Mus musculus with 6 samples.

Results

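The genes of the nuclear pore and of the receptors that carry cargo through it were followed in BV2 cells, an immortalized mouse microglial line. They were taken by gene symbol: names that begin with Nup and a digit, Kpna, Kpnb, Ipo and a digit, Xpo or Tnpo. That rule found 47 of the 22672 listed genes, 23 for pore proteins (nucleoporins) and 24 for transport receptors. There were 2 groups of 3 libraries, shscr-ctr, by the usual reading cells with a scrambled short hairpin RNA, and shNumb-ctr, cells with a hairpin named for Numb. The labels name no treatment, do not spell out the suffix ctr, and do not say whether each line was a clone or a pool. Nothing states that the 3 samples within a group came from different cultures, so p-values measure only how these samples spread, possibly for technical reasons.

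Nuclear pores are ring-shaped channels through the nuclear envelope. Outer rings built from the Y complex and an inner ring form the scaffold, and nucleoporins rich in phenylalanine-glycine repeats fill the channel and bind the receptors that pass. Importins load cargo in the cytoplasm and release it in the nucleus when they meet Ran bound to GTP, while exportins need that same Ran-GTP to hold their cargo until they reach the cytoplasm. In macrophages and microglia this traffic matters for inflammation, since NF-kB and STAT proteins act as transcription factors only after they enter the nucleus. In human cells the importin alpha proteins encoded by KPNA3 and KPNA4 are known carriers of NF-kB.

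The deposited values, taken to be FPKM (fragments for each kilobase of a transcript, corrected for library depth), summed to between 451080 and 455560 per library, with 13513 to 13823 genes above 0. The sequencing depth is unknown. Correlations of log2 values were 0.993 to 0.995 within the groups and 0.990 to 0.992 between them. Numb, the gene the hairpin is named for, went against its label: it was at 35.8, 36.7 and 36.1 FPKM in the shscr-ctr libraries and 38.04, 37.2 and 39.98 FPKM in the shNumb-ctr libraries, with no overlap and higher in the latter (log2 fold change 0.083, SE 0.036, limma adjusted p = 0.137). Directions below are therefore those of the libraries labelled shNumb-ctr. Of 13 microglial and macrophage markers 12 were above the filter used for testing, with P2ry12 below it. The summed level of the 13 was 1389.8 to 1427 FPKM in shscr-ctr and 1461 to 1591 FPKM in shNumb-ctr, with 5 of 12 called higher and 2 lower, where 8.11% of all tested genes were called higher and 10.7% lower. Summed markers reached at most 0.750 FPKM for neurons, 0.392 for endothelium, 0.145 for fibroblasts and 2.37 for oligodendrocytes. Of the 5 neuronal markers 4, and all 4 astrocyte markers, were listed at 0 in every library.

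Pore and receptor genes were mostly lower in the libraries labelled shNumb-ctr. Of the 42 members tested, 18 fell and 1, Ipo4, which shares most of its sequence with another gene, was called higher (limma, Benjamini-Hochberg adjusted p under 0.05 over all 10594 tested genes, on log2(FPKM + 1), which understates the change of low genes). Across all tested genes 10.7% were called lower and 8.11% higher, against 42.9% and 2.38% of the tested members. Among pore proteins 8 of 19 fell and 0 rose, with a median log2 fold change of -0.15. Among transport receptors 10 of 23 fell and 1 rose, with a median of -0.14. Both medians lay below the -0.021 of all tested genes, and they differed from each other by 0.0098. The SD between libraries was 0.033 for the pore median and 0.026 for the receptor median. Neither SD is the spread of the difference between the classes, which was not computed. The 18 genes fell by 7.35% (Nup62) to 19.8% (Xpo5). Of the 23 members that were not called, 17 had a log2 fold change below 0. In all, 35 of the 42 members (83.3%) and 56.1% of all tested genes were below 0.

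**Figure D1:**
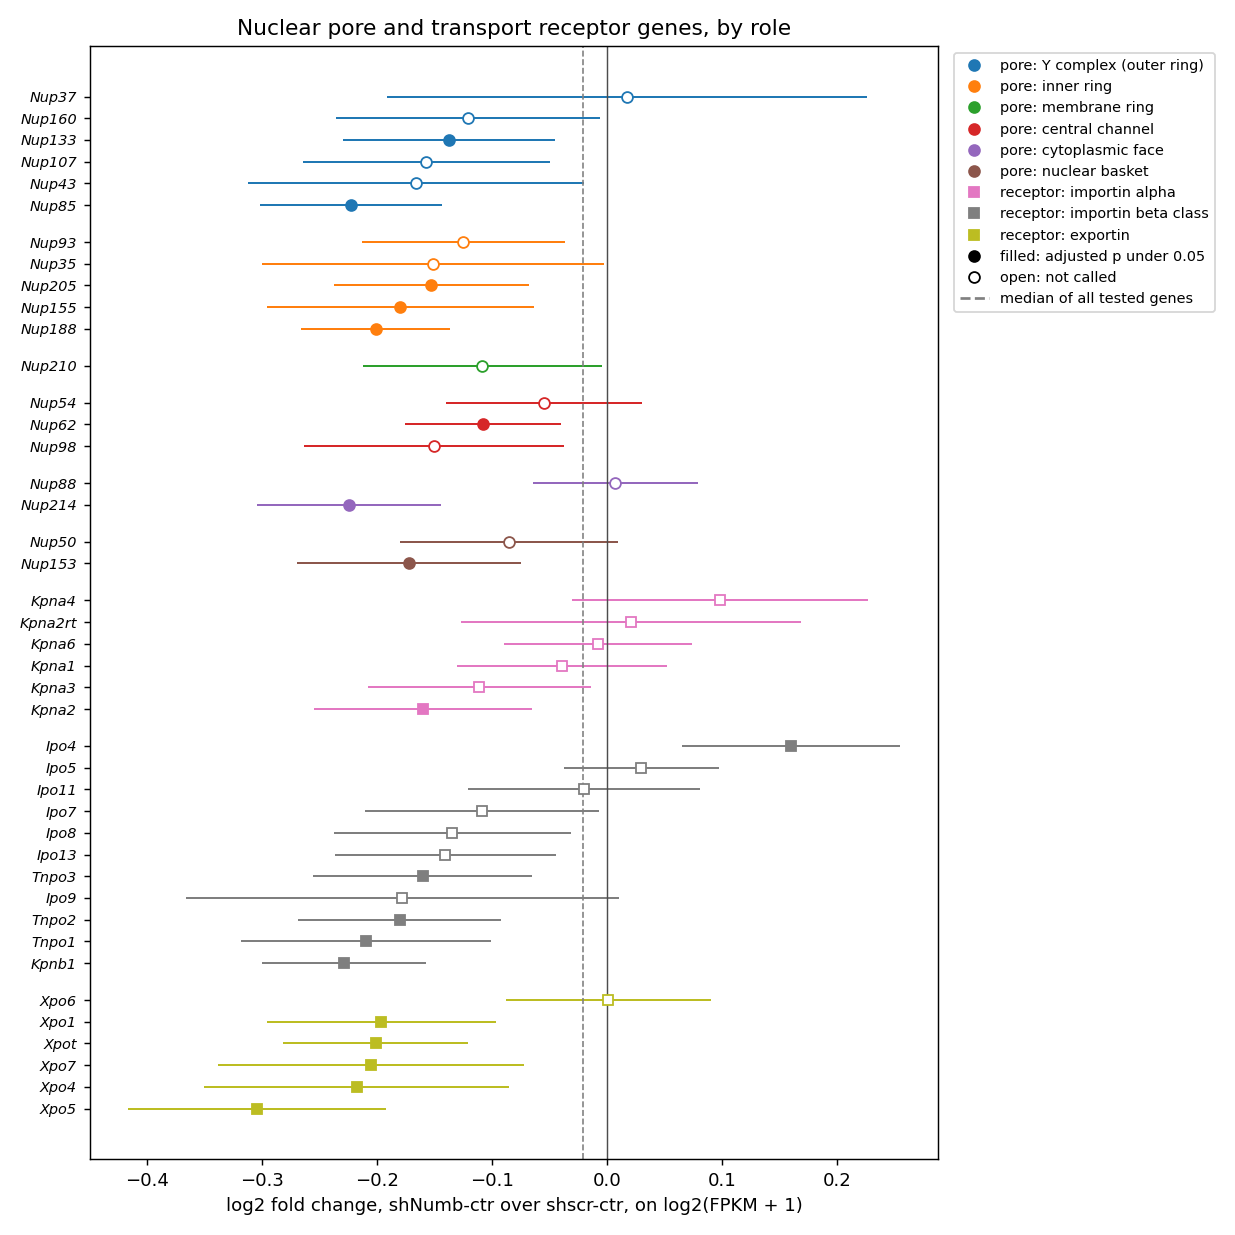
Log2 fold change (x axis, on log2(FPKM + 1)) of the 42 tested members, grouped by role, with bars for the 95% confidence interval from limma. Filled symbols are the 19 called genes, and 35 of the 42 points lie below 0, as do 56.1% of all tested genes.

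The fall was present in each of the 3 shNumb-ctr libraries. Relative to the shscr-ctr mean, the median deviation of pore proteins was -0.14, -0.10 and -0.18 (log2) in shNumb-ctr replicates 1, 2 and 3, and that of receptors -0.12, -0.11 and -0.16, where all tested genes had -0.018, -0.013 and -0.029. In 26 of 42 members (61.9%) the shNumb-ctr libraries all lay below the shscr-ctr libraries, and in 1 above. Over all tested genes these shares were 23.6% and 16.3%. Libraries were not equal within their groups: shNumb-ctr replicate 3 held the lowest value of 23 members and shscr-ctr replicate 1 the highest value of 25. The same count over all tested genes was not made. Their median deviation was also lowest in shNumb-ctr replicate 3, at -0.029, and highest in shscr-ctr replicate 1, at 0.0066. Summed over the 19 tested pore genes, FPKM was 521, 506 and 512 in the shscr-ctr libraries and 466, 483 and 459.7 in the shNumb-ctr libraries, a fold of 0.915. Summed over the 23 tested receptors it was 743, 712 and 718 against 672, 681 and 648, a fold of 0.921. The sums of the groups did not overlap in either class. In bulk RNA, fewer cells that express a gene and less RNA per cell cannot be told apart.

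**Figure D2:**
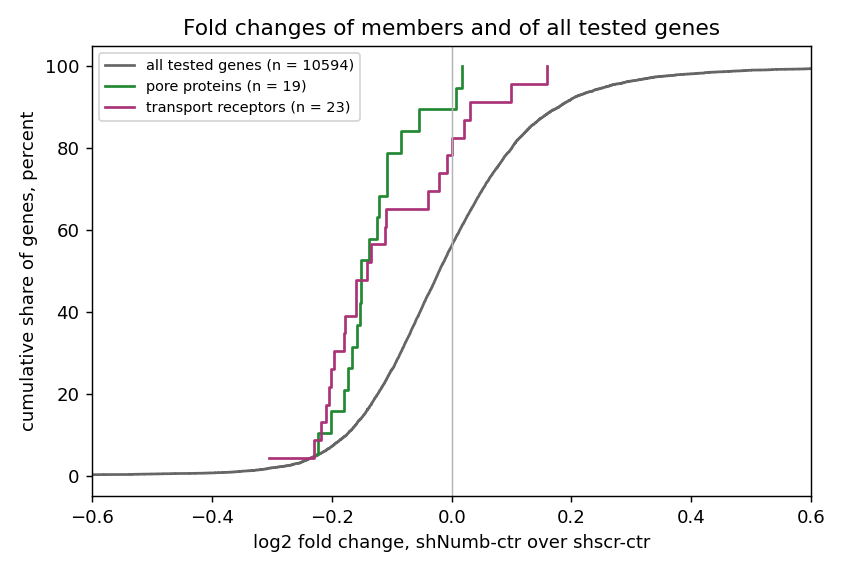
Cumulative share of genes (y axis, percent) against log2 fold change (x axis) for pore proteins, transport receptors and all 10594 tested genes. Both member curves lie to the left of the curve of all genes, with medians of -0.15 and -0.14 against -0.021.

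With 1 library left out, fewer pore proteins were called lower in every fit, and fewer receptors in every fit except that without shscr-ctr replicate 2. Pore proteins called lower then numbered 3 without shscr-ctr replicate 1 or without either shNumb-ctr replicate 1 or 3, and 4 without shscr-ctr replicate 3. Receptors called lower numbered 3 without shscr-ctr replicate 1 or shNumb-ctr replicate 3, and 5 without shscr-ctr replicate 3 or shNumb-ctr replicate 1. Fewer genes were called lower over the whole table too, from 4.41% without shscr-ctr replicate 1 to 8.26% without shNumb-ctr replicate 2, against 10.7% with all libraries. The medians stayed between -0.17 and -0.12 for pore proteins and between -0.16 and -0.12 for receptors in those fits. Nup85, Nup188, Nup214, Kpnb1, Xpo5 and Xpot were called lower in all 15 alternatives tried. As deposited, 859 genes were higher and 1130 lower over the whole table. After median-of-ratios rescaling these were 1037 and 832 (7.85% lower), and 5 pore proteins and 9 receptors were lower with medians of -0.13 and -0.12.

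Promoters of 3 genes that fell in every alternative, 1 from the pore, 1 importin and 1 exportin, are shown for their repeated short motifs. They are the 250 bases before the RefSeq start in GRCm38.p6, 5′ to 3′ on the gene's strand, and capitals mark CACGTG (an E-box) in Nup188, CCAAT in Kpnb1 and the palindromic NRF1 core (GCGCA followed by its reverse complement) in Xpo5.
Nup188 (chr2:30286166-30286415, plus strand): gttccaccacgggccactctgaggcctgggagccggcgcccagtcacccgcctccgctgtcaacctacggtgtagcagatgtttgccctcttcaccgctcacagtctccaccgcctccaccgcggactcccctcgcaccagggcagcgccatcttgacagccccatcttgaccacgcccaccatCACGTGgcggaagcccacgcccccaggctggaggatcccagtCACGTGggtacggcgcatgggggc
Kpnb1 (chr11:97187893-97188142, minus strand): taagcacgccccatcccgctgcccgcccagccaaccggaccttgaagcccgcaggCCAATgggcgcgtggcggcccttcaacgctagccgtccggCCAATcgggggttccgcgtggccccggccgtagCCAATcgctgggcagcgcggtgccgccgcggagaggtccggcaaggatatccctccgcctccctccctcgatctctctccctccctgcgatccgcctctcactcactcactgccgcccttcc
Xpo5 (chr17:46202561-46202810, plus strand): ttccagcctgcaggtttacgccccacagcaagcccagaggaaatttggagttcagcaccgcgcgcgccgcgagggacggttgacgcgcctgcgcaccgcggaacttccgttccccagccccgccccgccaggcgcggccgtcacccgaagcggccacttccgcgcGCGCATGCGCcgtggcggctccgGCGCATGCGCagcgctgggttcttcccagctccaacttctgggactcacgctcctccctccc
Nup188 held 2 E-boxes, Kpnb1 3 CCAAT boxes and Xpo5 2 NRF1 cores. RefSeq promoters (250 bases before to 50 after the start) were found for 35 of the 47 members, 42 windows in all. On either strand, the NRF1 core was in 9.52% of the members' windows, those of Nup62, Nup107, Nup50 and Xpo5, in 2.31% of the windows of tested genes and in 0.971% of all 32851. CACGTG was in 16.7%, 10.3% and 7.15% of these sets, and CCAAT in 54.8%, 37.9% and 37.4%. The E2F letters TTTCGCGC or TTTGGCGC were in 1 member, Ipo7 (2.38%, 1.67% and 0.813%). In the 17 windows of members called lower, the shares were 11.8% for the NRF1 core, 17.6% for CACGTG, 47.1% for CCAAT and 0 for the E2F letters. None of these motifs lies inside another, though the ends of the E2F letters and the NRF1 core can overlap, and a match is a description of the window.

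In the Y complex, the scaffold of the outer rings, 2 of the 6 genes found by the symbol rule fell and 0 rose. Subunits with other names are outside this count. For this and the other pore roles, the shares over all tested genes were 10.7% lower and 8.11% higher. Nup85 was at 44.1, 44.1 and 42.3 FPKM in the shscr-ctr libraries and 35.99, 37.4 and 37.998 FPKM in the shNumb-ctr libraries, each in the order of replicates 1, 2 and 3. It fell by 14.6%, 43.5 ± 1.02 against 37.1 ± 1.03 FPKM (SD, n = 3, log2 fold change -0.22, SE 0.034, limma adjusted p = 0.0055). All 3 shNumb-ctr libraries lay below all 3 shscr-ctr libraries. Nup133, the member at the far end of the Y stem, was at 19.1, 18.3 and 18.99 FPKM in the shscr-ctr libraries and 16.4, 17.4 and 17.3 FPKM in the shNumb-ctr libraries and fell by 9.56% (log2 fold change -0.14, SE 0.03999, limma adjusted p = 0.0478), without overlap but close to the threshold. Its call was lost without any 1 of the 6 libraries and in 12 of 15 alternatives (highest limma adjusted p among them 0.138). Nup107 (21.001 ± 1.11 against 18.7 ± 0.5696 FPKM, log2 fold change -0.16, limma adjusted p = 0.0509) and Nup160 (15.8 ± 0.509 against 14.5 ± 0.815 FPKM, log2 fold change -0.12, limma adjusted p = 0.125) did not overlap between the groups and did not pass (SD, n = 3). Nup107 was called lower among genes with a mean of at least 5 and after the GC and length correction. Nup43 at 23.3 ± 0.831 against 20.7 ± 1.903 FPKM overlapped and did not pass (SD, n = 3, log2 fold change -0.17, limma adjusted p = 0.103), and was called without shNumb-ctr replicate 2 and after that correction. Nup37, at 21.3 ± 1.79 against 21.6 ± 2.79 FPKM, was the most variable of the 6 (SD, n = 3, log2 fold change 0.017, limma adjusted p = 0.914). Its sign changed to -0.052 and -0.082 without shscr-ctr replicate 2 or shNumb-ctr replicate 2.

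In the inner ring, which ties the scaffold to the membrane, 3 of 5 genes fell and 0 rose. Nup188 was at 46.4, 46.6 and 45.5 FPKM in the shscr-ctr libraries and 39.9, 39.8 and 40.4 FPKM in the shNumb-ctr libraries. It fell by 13.3% to 40.0 ± 0.287 FPKM (SD, n = 3, log2 fold change -0.20, SE 0.028, limma adjusted p = 0.004), and the groups did not overlap. The related scaffold gene Nup205 was at 30.2, 28.9 and 30.1 FPKM in the shscr-ctr libraries and 26.1, 27.6 and 26.3 FPKM in the shNumb-ctr libraries and fell by 10.4% (log2 fold change -0.15, SE 0.037, limma adjusted p = 0.0257). Nup155, which anchors the ring to the envelope, was at 18.7, 17.2 and 18.6 FPKM in the shscr-ctr libraries and 16.01, 16.6 and 15.1 FPKM in the shNumb-ctr libraries and fell by 12.4% (log2 fold change -0.18, SE 0.0504, limma adjusted p = 0.0422). Neither gene overlapped between the groups, and the calls of both were lost without either replicate 1 or replicate 3 of either group (highest limma adjusted p over the alternatives 0.0858 and 0.126). Nup93, the linker of the ring, at 34.6 ± 1.44 against 31.7 ± 0.564 FPKM (SD, n = 3, log2 fold change -0.13, limma adjusted p = 0.057) did not overlap and did not pass, but was called without shscr-ctr replicate 3 (limma adjusted p = 0.0476) and among genes with a mean of at least 5. Nup35 at 15.1 ± 0.8502 against 13.5 ± 1.07 FPKM did not pass either (SD, n = 3, log2 fold change -0.15, limma adjusted p = 0.137), and its level is uncertain because 45.1% of its transcript, read in windows of 50 bases, is found in other genes too.

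Nup210, a membrane-spanning nucleoporin, was at 20.7, 21.9 and 20.1 FPKM in the shscr-ctr libraries and 19.7, 18.5 and 19.8 FPKM in the shNumb-ctr libraries, and the groups did not overlap. The difference did not pass (log2 fold change -0.11, SE 0.045, limma adjusted p = 0.129). Its paralog Nup210l was below the filter, at 0.641 to 0.697 FPKM in shscr-ctr and 0.360 to 0.545 in shNumb-ctr, and was not tested.

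Of the central channel, 1 of 3 tested genes fell. Nup62, a phenylalanine-glycine repeat protein of the channel, was at 47.4, 48.5 and 47.5 FPKM in the shscr-ctr libraries and 43.5, 44.9 and 44.5 FPKM in the shNumb-ctr libraries. It fell by 7.35%, 47.8 ± 0.627 against 44.3 ± 0.765 FPKM (SD, n = 3, log2 fold change -0.11, SE 0.029, limma adjusted p = 0.0385), the smallest fall among the called members. Although the groups did not overlap, the call was lost without any 1 of the 6 libraries (highest limma adjusted p over the alternatives 0.117). Nup98, whose gene encodes both a repeat protein and the scaffold protein Nup96, was at 12.2 ± 0.19995 against 10.9 ± 0.634 FPKM without overlap (SD, n = 3, log2 fold change -0.15, limma adjusted p = 0.0682), and it was called without shNumb-ctr replicate 2. Nup54, a direct partner of Nup62, was at 21.1 ± 0.637 against 20.2 ± 0.296 FPKM (SD, n = 3, log2 fold change -0.055, limma adjusted p = 0.33). The remaining partner of that trio, Nup58, was listed at 0 in all 6 libraries, as were Nup62cl and Nup50l. In GENCODE release M21, 53.4% of its windows also occur in other genes, mainly Gm49336, which overlaps it on the same strand of chromosome 14. Gm49336 was at 19.6, 20.03 and 19.1 FPKM in the shscr-ctr libraries and 18.5, 20.7 and 17.6 FPKM in the shNumb-ctr libraries, overlapping between the groups (log2 fold change -0.049, SE 0.057, limma adjusted p = 0.581). Whether it holds the reads of Nup58 was not tested, and a listing at 0 is no measure of Nup58 here.

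On the cytoplasmic face the partners Nup214 and Nup88, which bind each other, gave different values. Nup214, a repeat protein where exported cargo leaves the pore, was at 21.1, 20.8 and 20.8 FPKM in the shscr-ctr libraries and 17.4, 17.9 and 18.1 FPKM in the shNumb-ctr libraries. It fell by 15.1%, 20.9 ± 0.192 against 17.8 ± 0.366 FPKM (SD, n = 3, log2 fold change -0.22, SE 0.035, limma adjusted p = 0.0055), without overlap. Nup88, the pore gene with the highest level, was at 56.4, 55.5 and 56.1 FPKM in the shscr-ctr libraries and 56.5, 57.8 and 54.5 FPKM in the shNumb-ctr libraries and overlapped (log2 fold change 0.0073, SE 0.031, limma adjusted p = 0.892). The 95% interval of its log2 fold change was -0.065 to 0.079, and its sign changed to -0.012 without shNumb-ctr replicate 2. The ratio of Nup214 to Nup88 FPKM, which does not depend on library scaling and was chosen after the values were seen, was 0.375, 0.375 and 0.372 in the shscr-ctr libraries and 0.307, 0.309 and 0.332 in the shNumb-ctr libraries. At the nuclear basket, Nup153, a repeat protein that docks importins, was at 16.1, 14.8 and 15.3 FPKM in the shscr-ctr libraries and 13.7, 13.6 and 13.3 FPKM in the shNumb-ctr libraries and fell by 12.02% (log2 fold change -0.17, SE 0.042, limma adjusted p = 0.0275). That call was kept only without shscr-ctr replicate 2 among the fits that left out a library (highest limma adjusted p over the alternatives 0.0913). Nup50, which helps to strip cargo from importin alpha, was at 31.7, 30.7 and 31.5 FPKM in the shscr-ctr libraries and 28.9, 31.1 and 28.4 FPKM in the shNumb-ctr libraries. Its groups overlapped and it did not pass (log2 fold change -0.085, SE 0.041, limma adjusted p = 0.179).

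**Figure D3:**
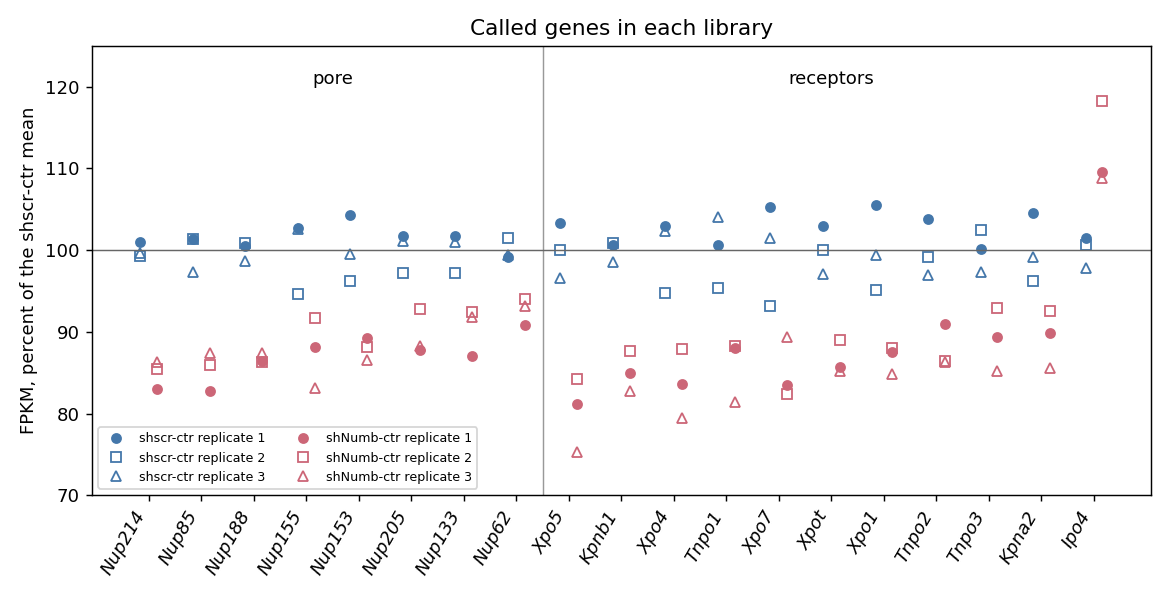
FPKM of the 19 called members in each library as a percentage of that gene's shscr-ctr mean (y axis), pore genes left and receptors right of the line. The shNumb-ctr libraries lie below every shscr-ctr library in 18 genes and above in Ipo4. Over all tested genes they lie below in 23.6% and above in 16.3%. The plotted genes were picked by their calls in these same libraries.

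Of the receptors, exportins had the largest share of falls, 5 of 6, with a median log2 fold change of -0.20 and no rise. For this and the other receptor roles, the shares over all tested genes were 10.7% lower and 8.11% higher. Xpo5, which exports microRNA precursors, was at 24.6, 23.9 and 23.1 FPKM in the shscr-ctr libraries and 19.3, 20.1 and 17.96 FPKM in the shNumb-ctr libraries. It fell by 19.8%, 23.9 ± 0.797 against 19.1 ± 1.09 FPKM (SD, n = 3, log2 fold change -0.30, SE 0.049, limma adjusted p = 0.0062), the largest change among the 42 tested members, with shNumb-ctr replicate 3 lowest. Xpot, the exporter of transfer RNA, was at 41.6, 40.4 and 39.2 FPKM in the shscr-ctr libraries and 34.6, 35.9 and 34.4 FPKM in the shNumb-ctr libraries and fell by 13.4% (log2 fold change -0.20, SE 0.035, limma adjusted p = 0.0084). In both genes the groups did not overlap. Xpo1, also known as CRM1, carries proteins with leucine-rich export signals, among them the NF-kB inhibitor IkB alpha, and was at 32.7, 29.5 and 30.8 FPKM in the shscr-ctr libraries and 27.2, 27.3 and 26.3 FPKM in the shNumb-ctr libraries. It fell by 13.2% (log2 fold change -0.20, SE 0.043, limma adjusted p = 0.0186). Xpo4 was at 6.14, 5.65 and 6.11 FPKM in the shscr-ctr libraries and 4.99, 5.24 and 4.74 FPKM in the shNumb-ctr libraries and fell by 16.3% (log2 fold change -0.22, SE 0.058, limma adjusted p = 0.0352). Xpo7 was at 9.02, 7.98 and 8.697 FPKM in the shscr-ctr libraries and 7.16, 7.06 and 7.66 FPKM in the shNumb-ctr libraries and fell by 14.9% (log2 fold change -0.21, SE 0.058, limma adjusted p = 0.0427). These 3 genes did not overlap between the groups either. The calls of Xpo1 and Xpo4 were lost without either replicate 1 or replicate 3 of either group, and that of Xpo7 without those or shNumb-ctr replicate 2 (highest limma adjusted p over the alternatives 0.0614, 0.109 and 0.133). Xpo6, the exporter of actin with profilin, was the exception, at 21.8 ± 0.127 against 21.8 ± 0.877 FPKM (SD, n = 3, log2 fold change 0.0012, limma adjusted p = 0.986). The 95% interval of its log2 fold change was -0.088 to 0.090. The ratio of Xpo5 to Xpo6 FPKM, chosen after the values were seen, was 1.12, 1.096 and 1.06 in the shscr-ctr libraries and 0.910, 0.939 and 0.786 in the shNumb-ctr libraries.

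In the importin beta class, 4 of 11 genes fell and Ipo4 alone was called higher. Kpnb1 encodes importin beta, which carries cargo through the pore alone or with importin alpha as adaptor, and was at 72.9, 73.1 and 71.4 FPKM in the shscr-ctr libraries and 61.6, 63.6 and 59.96 FPKM in the shNumb-ctr libraries. It fell by 14.9%, 72.5 ± 0.939 against 61.7 ± 1.798 FPKM (SD, n = 3, log2 fold change -0.23, SE 0.031, limma adjusted p = 0.0037), without overlap. The 3 transportins, which carry RNA-binding proteins and splicing factors, all fell. Tnpo1 was at 24.5, 23.2 and 25.3 FPKM in the shscr-ctr libraries and 21.4, 21.5 and 19.8 FPKM in the shNumb-ctr libraries and fell by 14.1% (log2 fold change -0.21, SE 0.047, limma adjusted p = 0.0205). Tnpo2 was at 39.2, 37.5 and 36.7 FPKM in the shscr-ctr libraries and 34.4, 32.7 and 32.6 FPKM in the shNumb-ctr libraries and fell by 12.1% (log2 fold change -0.18, SE 0.038, limma adjusted p = 0.0166). Tnpo3 was at 28.6, 29.3 and 27.8 FPKM in the shscr-ctr libraries and 25.5, 26.6 and 24.3 FPKM in the shNumb-ctr libraries and fell by 10.9% (log2 fold change -0.16, SE 0.041, limma adjusted p = 0.0321). In each of them the groups did not overlap. The call of Tnpo2 was lost without shscr-ctr replicate 1 or shNumb-ctr replicate 3, that of Tnpo1 also without shscr-ctr replicate 3, and that of Tnpo3 without any library except shNumb-ctr replicate 2 (highest limma adjusted p over the alternatives 0.0576, 0.0656 and 0.0891).

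The other importins of the class did not pass. Ipo7, an importer of ribosomal proteins and the member with the highest level, was at 106, 97.9 and 101 FPKM in the shscr-ctr libraries and 94.7, 98.6 and 88.9 FPKM in the shNumb-ctr libraries, with 1 shNumb-ctr library inside the shscr-ctr range (log2 fold change -0.11, SE 0.044, limma adjusted p = 0.12). Ipo5, the next most abundant of the class, was at 80.8 ± 1.36 against 82.5 ± 1.84 FPKM (SD, n = 3, log2 fold change 0.0299, limma adjusted p = 0.5), with a 95% interval of the log2 fold change of -0.037 to 0.097. Ipo13, which works in both directions, was at 19.5 ± 0.737 against 17.6 ± 0.483 FPKM (SD, n = 3, log2 fold change -0.14, limma adjusted p = 0.0508) and Ipo8 at 11.4 ± 0.205 against 10.3 ± 0.416 FPKM (SD, n = 3, log2 fold change -0.13, limma adjusted p = 0.0719), both without overlap. Ipo13 was called lower without shscr-ctr replicate 2 and among genes with a mean of at least 5. Ipo9 was at 20.05 ± 2.297 against 17.5 ± 1.104 FPKM (SD, n = 3, log2 fold change -0.18, limma adjusted p = 0.161), with shscr-ctr replicate 3 at 17.4 FPKM inside the shNumb-ctr range, and it was called without that library. Ipo11 was at 13.03 ± 0.578 against 12.8 ± 0.141 FPKM (SD, n = 3, log2 fold change -0.0203, limma adjusted p = 0.771).

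Ipo4, which imports histones and ribosomal proteins, was at 26.3, 26.1 and 25.3 FPKM in the shscr-ctr libraries and 28.4, 30.7 and 28.2 FPKM in the shNumb-ctr libraries, with no overlap, and was called higher by 12.2% (log2 fold change 0.16, SE 0.041, limma adjusted p = 0.0318). This level is uncertain. In GENCODE release M21, 59.7% of the windows of Ipo4 also occur in other genes, mainly Gm49378, which lies on the same strand of chromosome 14 and overlaps its exons. Gm49378 was at 2.66, 3.004 and 3.77 FPKM in the shscr-ctr libraries and 0.0429, 0.265 and 0.0106 FPKM in the shNumb-ctr libraries, lower in the latter (log2 fold change -1.90, SE 0.13, limma adjusted p = 0.00026). The sum of both genes was 29.0, 29.1 and 29.1 FPKM in the shscr-ctr libraries and 28.4, 30.9 and 28.2 FPKM in the shNumb-ctr libraries, so the summed values overlapped. Fitted as 1 gene, their log2 fold change was 0.0052 with a 95% interval of -0.089 to 0.0999 (limma adjusted p = 0.942). Of 22 receptors tested in that fit, none was called higher, while 10 were still called lower. Over all tested genes 8.1% were then called higher and 10.7% lower. As listed, the call of Ipo4 was also lost without any library except shNumb-ctr replicate 3.

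**Figure D4:**
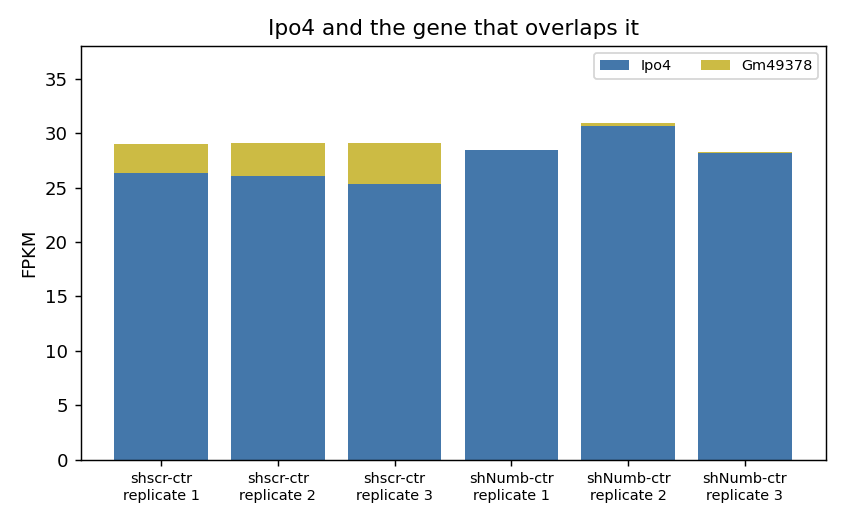
FPKM (y axis) of Ipo4 and of Gm49378, which shares its sequence and position, stacked for each library. Ipo4 alone is higher in the shNumb-ctr libraries, and the stacked sums of 28.2 to 30.9 there overlap those of 29.0 to 29.1 in shscr-ctr.

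Of the importin alpha genes, the adaptors that recognise classical nuclear localization signals, 1 of 6 tested fell. Kpna2, the most abundant, was at 89.5, 82.4 and 84.8 FPKM in the shscr-ctr libraries and 76.9, 79.2 and 73.3 FPKM in the shNumb-ctr libraries. It fell by 10.6% (log2 fold change -0.16, SE 0.041, limma adjusted p = 0.0318), and the groups did not overlap. The call was lost without either replicate 1 or replicate 3 of either group (highest limma adjusted p over the alternatives 0.0965). Since 92.5% of its windows also occur in other genes, mainly the retrogene Kpna2rt, its level is uncertain. Kpna2rt itself was at 4.36 ± 0.271 against 4.43 ± 0.251 FPKM (SD, n = 3, log2 fold change 0.021, limma adjusted p = 0.841). This level is uncertain too, with 98.97% of its windows shared, mainly with Kpna2. The 2 genes summed gave a log2 fold change of -0.15 (SE 0.041, limma adjusted p = 0.0380). The carriers of NF-kB known from human cells, Kpna3 at 25.5 ± 0.986 against 23.5 ± 0.798 FPKM (log2 fold change -0.11, limma adjusted p = 0.101) and Kpna4 at 11.1 ± 0.607 against 11.96 ± 0.639 FPKM (log2 fold change 0.10, limma adjusted p = 0.248), did not pass (SD, n = 3), and their fold changes had opposite signs. Kpna1 at 16.3 ± 0.573 against 15.8 ± 0.191 FPKM and Kpna6 at 14.3 ± 0.125 against 14.2 ± 0.0594 FPKM did not pass either (SD, n = 3, limma adjusted p = 0.520 and 0.896). The 95% interval of the log2 fold change was -0.13 to 0.053 for Kpna1 and -0.090 to 0.074 for Kpna6, whose sign turned under median-of-ratios rescaling. Kpna7 was at 0.0273 FPKM in 1 library, listed at 0 in the others, and not tested. Within the summed FPKM of the family, Kpna2 made up 54.4% ± 0.762 in shscr-ctr and 52.2% ± 0.669 in shNumb-ctr, and Kpna4 7.08% ± 0.538 and 8.17% ± 0.238 (SD, n = 3). The shares of Kpna1, 10.4% ± 0.112 and 10.8% ± 0.217, and of Kpna6, 9.11% ± 0.317 and 9.72% ± 0.339, were also higher in shNumb-ctr (SD, n = 3). None of these 4 shares overlapped between the groups. Those of Kpna3, 16.2% ± 0.253 and 16.1% ± 0.359, and of Kpna2rt, 2.77% ± 0.188 and 3.03% ± 0.0906, did overlap (SD, n = 3). Within a fixed total a fall in the share of Kpna2 raises the summed share of the others.

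Pore genes with other names, listed separately, had 5 of 11 lower and 0 higher, beside 10.7% and 8.11% of all tested genes. The median log2 fold change of the 11 was -0.11. Ndc1, a membrane protein that anchors the pore, was at 15.9, 16.1 and 15.95 FPKM in the shscr-ctr libraries and 12.2, 13.96 and 11.8 FPKM in the shNumb-ctr libraries (log2 fold change -0.32, SE 0.0603, limma adjusted p = 0.0114). Tpr, the filament protein of the nuclear basket, was at 28.4, 27.3 and 27.02 FPKM in the shscr-ctr libraries and 23.3, 23.7 and 22.2 FPKM in the shNumb-ctr libraries (log2 fold change -0.25, SE 0.039, limma adjusted p = 0.0057). Both fell, and were called lower in every alternative. Pom121 (log2 fold change -0.19), Ahctf1 (-0.18), which seeds pores on chromatin, and Gle1 (-0.16), which acts in messenger RNA release, also fell. The Gle1 and Ahctf1 calls were lost without any library except shNumb-ctr replicate 2. Ranbp2, the large Ran-binding protein of the cytoplasmic filaments, was at 15.6 ± 0.577 against 14.4 ± 0.6797 FPKM without overlap and did not pass (SD, n = 3, log2 fold change -0.11, limma adjusted p = 0.154). The gene listed as Nupl2, whose protein is Nup42, was at 3.55 ± 0.229 against 3.76 ± 0.221 FPKM (SD, n = 3, log2 fold change 0.066, limma adjusted p = 0.513). Rae1 (log2 fold change -0.084, limma adjusted p = 0.0751) and Seh1l (-0.081, limma adjusted p = 0.141) did not overlap and did not pass. Sec13 (-0.055, limma adjusted p = 0.269) and Aaas (-0.036, limma adjusted p = 0.575) overlapped and did not pass.

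The Ran cycle drives the receptors, and 6 of its 7 listed genes fell with 0 higher, beside 10.7% and 8.11% of all tested genes. The median log2 fold change of the 7 was -0.16. Ran itself, the GTPase, was at 266, 254 and 255 FPKM in the shscr-ctr libraries and 243, 234 and 245 FPKM in the shNumb-ctr libraries, without overlap and just short of the threshold (log2 fold change -0.10, SE 0.0302, limma adjusted p = 0.0501). Ran was called lower in 3 of the 15 alternatives. Rcc1, the chromatin-bound exchange factor that loads Ran with GTP, was at 32.001, 30.1 and 30.6 FPKM in the shscr-ctr libraries and 26.3, 27.8 and 26.1 FPKM in the shNumb-ctr libraries and fell (log2 fold change -0.20, SE 0.039, limma adjusted p = 0.0129). The call of Rcc1 held in all 15 alternatives. Ranbp1 (log2 fold change -0.16), Ranbp3 (-0.17), a cofactor of Xpo1, Nutf2 (-0.13), which returns Ran to the nucleus, Rangap1 (-0.095), which triggers GTP hydrolysis, and Rangrf (-0.22) fell as well. Rangap1 lost its call without any 1 library, Ranbp1 without any library except shscr-ctr replicate 3 and shNumb-ctr replicate 2, Nutf2 without any library except shNumb-ctr replicate 3, Ranbp3 without shscr-ctr replicate 1 and Rangrf without shNumb-ctr replicate 1. Ranbp1, Nutf2 and Rangrf are uncertain, with 24.0%, 91.1% and 43.5% of their windows shared. Exons of Slc25a35 on the opposite strand also overlap 90.7% of the exon bases of Rangrf. Of 7 tested receptors and adaptors with other names, Nutf2 included, 3 fell and 0 rose. Cse1l, the exportin that returns importin alpha to the cytoplasm, was at 52.3, 48.5 and 49.2 FPKM in the shscr-ctr libraries and 44.3, 45.6 and 42.7 FPKM in the shNumb-ctr libraries and fell (log2 fold change -0.17, SE 0.0398, limma adjusted p = 0.0217). The Cse1l call was lost without replicate 1 of either group or replicate 3 of shNumb-ctr. Heatr3 was the other faller (log2 fold change -0.22).

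For messenger RNA export, 6 of 23 genes fell and 0 rose, beside 10.7% and 8.11% of all tested genes. The median log2 fold change of the 23 was -0.10. Nxf1, the main messenger RNA export receptor, which is no member of the importin beta family, fell, 36.1 ± 0.529 against 31.05 ± 1.42 FPKM (log2 fold change -0.21, SE 0.039, limma adjusted p = 0.0109), and so did the helicase gene Ddx39a, 97.8 ± 4.19 against 82.7 ± 2.47 FPKM (SD, n = 3, log2 fold change -0.24, SE 0.039, limma adjusted p = 0.0066). Both calls held in every alternative. Gle1, Thoc3, Thoc5 and Ddx19a were the others, and their calls were lost without shscr-ctr replicate 1, among other libraries. The level of Ddx19a is uncertain, with 33.2% of its windows shared.

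Genes of cell division moved with the members. Of 24 genes of G1/S and replication 13 were lower and 0 higher, beside 10.7% and 8.11% of all tested genes. The summed level of the 24 was 921 to 979 FPKM in shscr-ctr and 819.8 to 849.9 FPKM in shNumb-ctr. Of 22 genes of G2/M and mitosis 14 were lower and 0 higher, with 848 to 880.3 against 747 to 778 FPKM. Their median log2 fold changes were -0.15 and -0.19, and their part in the result for pore and receptor genes was not tested. Transcript length moved with the fold change over the whole table too: in 5 bins of tested genes from the shortest to the longest transcripts, the median log2 fold change was 0.0089, -0.012, -0.024, -0.027 and -0.048. The shares called lower were 8.42%, 10.4%, 12.7%, 11.5% and 11.2%, highest in the middle bin. The median transcript was 4766 bases for pore proteins, 5669 for receptors and 3355 for all tested genes. After a correction for GC content and length, 9 pore proteins and 9 receptors were lower, with medians of -0.12 for both, and Ipo4 was higher. In that fit 10.8% of all tested genes were called lower and 9.28% higher, with a median of -0.014.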

How the data were processed

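The authors deposited 1 value for each of 22672 listed genes in each of 6 libraries. Of these entries, 556 carry identifiers of assembled transcripts. The unit is not named. The deposited values are fractional and sum to nearly the same total for each library and were therefore taken to be FPKM, normalized by the authors for length and depth, and TPM cannot be told apart. The submitters' processing notes name CASAVA and DESeq2 with no role. The aligner, build and annotation were not given in the sources used here.

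Values were analysed as log2(FPKM + 1) for the 10594 genes with at least 1 FPKM in at least 3 libraries, in limma 3.58.1 (R 4.3.3) with a mean-dependent prior variance, no covariate, two-sided, with Benjamini-Hochberg adjustment over all of them. The lowest p an exact permutation of 3 against 3 allows is 0.1, so single values were not tested that way.

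The members and gene lists were chosen with earlier results of these data known. Values in every library are given for called members and for the most abundant gene of each role, and at most 6 called genes of each other list are named, with Ran, Cse1l, Ranbp2 and Tpr. Other genes, among them Gm49378 and Gm49336, were chosen after their values were seen.

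Shared sequence was measured in GENCODE M21 (GRCm38) with windows of 50 bases every 10 bases of the longest transcript (Python 3.11.15). Levels are called uncertain over 20%. Promoters are from RefSeq. Alternatives were a pseudocount of 0.1, no filter, a mean of at least 5, 2 rescalings, a constant prior variance, the replicate block and each library left out. A GC and length correction (splines, 4 degrees of freedom) and summed copies were added after seeing the data.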

Additional observations from a re-analysis of the deposited data

How the results depend on the processing

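Of the 35 members below 0 as reported, 33 stayed below 0 in all 15 alternatives, and 6 of the 19 calls were kept in all of them. Pore proteins called lower numbered 5 after median-of-ratios rescaling, after quantile normalization and with a constant prior variance. In these fits 7.85%, 8.67% and 8.39% of all tested genes were called lower. Transport receptors called lower numbered 6 with no filter, beside 5.76% of all tested genes. Receptors called higher numbered 0 with no filter, with a constant prior variance and with copies of 1 sequence summed. All tested genes called higher there were 5.08%, 7.2% and 8.1%. With the replicate number as a block, 3 pore proteins and 6 receptors were lower and 0 receptors higher. Over the whole table that fit called 520 genes higher (4.91%) and 559 lower (5.28%). Same-numbered libraries correlated at 0.0067, 0.012 and 0.047 in their deviations from the group means. The shscr-ctr replicate 1 correlated best with shNumb-ctr replicate 2, at 0.066. With 3 libraries per group, these values cannot decide whether same-numbered libraries share an origin. With 1 library left out, pore proteins called lower ranged from 3 to 7, receptors called lower from 3 to 10 and higher from 0 to 1, and genes over the whole table from 499 to 671 higher and 465 to 869 lower, where fewer samples were fitted.

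Signs changed for members near 0. Nup37 was at -0.013 after the GC and length correction and from -0.082 to 0.070 without 1 library. Kpna6 was at 0.013 after both rescalings and 0.023 after that correction, and Ipo11 at 4.7e-04 and 0.0011 after the rescalings. Without 1 library, Nup88 ranged from -0.012 to 0.030, Xpo6 from -0.030 to 0.019, Kpna2rt from -0.022 to 0.059 and Ipo11 from -0.048 to 0.011. The causes were not tested. Depth is unknown, so no counting limit can be given, and small shifts may have been missed.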

Other observations

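The nuclear envelope around the pores was examined with 17 listed genes, of which 16 were tested, 5 were lower and 1 higher in the libraries labelled shNumb-ctr, beside 10.7% and 8.11% of all tested genes. Lbr, the lamin B receptor of the inner membrane, was at 26.7, 24.8 and 24.4 FPKM in the shscr-ctr libraries and 20.3, 20.1 and 18.5 FPKM in the shNumb-ctr libraries and fell (log2 fold change -0.35, SE 0.0501, limma adjusted p = 0.0042). Lmnb1, a B-type lamin, was at 28.1, 27.4 and 27.6 FPKM in the shscr-ctr libraries and 23.3, 21.4 and 21.9 FPKM in the shNumb-ctr libraries and fell (log2 fold change -0.31, SE 0.0401, limma adjusted p = 0.0032). Both were without overlap and called lower in every alternative. Lmnb2 (log2 fold change -0.22), Tmpo (-0.16) and Syne3 (-0.19) also fell. Their calls were lost without shscr-ctr replicate 1 or shNumb-ctr replicate 3, and those of Tmpo and Syne3 without further libraries. Syne1, which links the nucleus to the cytoskeleton, was at 4.63, 4.79 and 4.91 FPKM in the shscr-ctr libraries and 5.97, 5.69 and 6.15 FPKM in the shNumb-ctr libraries and rose (log2 fold change 0.26, SE 0.053, limma adjusted p = 0.0137), a call lost without shscr-ctr replicate 1.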
